A study of Mus musculus with 9 samples.

Results

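Smooth muscle and pericyte genes were followed in mouse thyroid through 8 genes chosen by symbol, 8 of the 33924 genes in the count table. Of these, 5 encode parts of the contractile apparatus or cytoskeleton of smooth muscle (Acta2, Myh11, Tagln, Cnn1 and Des), and 3 encode signalling proteins of the mural cells, the pericytes and smooth muscle cells that wrap vessels (Rgs5, Pdgfrb and Notch3). All 8 passed the filter on low counts and all 8 were tested. The study measured RNA from whole, flash-frozen thyroids in 3 groups of 3 libraries: wild type, Arid2 knockout and Smarcb1 knockout. Arid2 and Smarcb1 are subunits of SWI/SNF, the complex that remodels chromatin, and the comparison asks how the thyroid transcriptome differs when 1 of them is lost. The labels give the genotype and the tissue only. The promoter or cell type of any Cre, the age and sex of the mice, and whether each library is 1 animal are not given in the sources used here, so a p-value measures the spread between these libraries.

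Smooth muscle cells contract when myosin, here the smooth muscle heavy chain Myh11, pulls on actin filaments that contain Acta2, with calponin (Cnn1) and transgelin (Tagln) bound to the filaments and desmin (Des) forming the intermediate filaments around them. Serum response factor, Srf, binds DNA at CArG boxes near many of these genes, and myocardin (Myocd) and the related factors Mkl1 and Mkl2 are its coactivators. Pericytes sit on capillaries: endothelial cells release Pdgfb, the pericyte receptor Pdgfrb receives it, Notch3 receives ligands from the neighbouring endothelium, and Rgs5 shuts off G protein signals in mural cells. The thyroid follicle is surrounded by a dense capillary net, so whole-gland RNA carries these transcripts together with those of the follicle cells. In bulk tissue, fewer cells of a type and less RNA per cell cannot be told apart.

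The sequences just before the starts of 3 contractile genes are shown because their transcripts differed most widely between libraries among the contractile members. They are the 250 bases before the start, 5′ to 3′ on the gene's own strand, from RefSeq on GRCm38.p6. Windows of 5 of the 8 members were searched, and those of Myh11, Tagln and Pdgfrb were not. The capitals mark CArG-like sites, in which at most 1 of the 6 middle bases is G or C.
Acta2: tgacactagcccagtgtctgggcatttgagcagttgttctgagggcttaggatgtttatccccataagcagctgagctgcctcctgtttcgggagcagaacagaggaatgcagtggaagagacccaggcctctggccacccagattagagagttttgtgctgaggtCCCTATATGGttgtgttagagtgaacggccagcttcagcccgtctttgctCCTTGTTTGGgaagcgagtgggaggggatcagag
Cnn1: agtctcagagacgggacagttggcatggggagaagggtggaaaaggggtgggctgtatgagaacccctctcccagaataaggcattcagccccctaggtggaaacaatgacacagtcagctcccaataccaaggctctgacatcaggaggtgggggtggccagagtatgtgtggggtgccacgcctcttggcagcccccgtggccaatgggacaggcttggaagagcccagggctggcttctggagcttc
Des: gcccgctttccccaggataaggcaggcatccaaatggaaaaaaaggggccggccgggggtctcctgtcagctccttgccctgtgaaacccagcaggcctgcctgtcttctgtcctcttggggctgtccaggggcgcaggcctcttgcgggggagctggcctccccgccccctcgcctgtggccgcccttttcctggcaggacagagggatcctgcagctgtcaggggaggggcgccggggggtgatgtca
The Acta2 window is chr19:34255374-34255623 on the minus strand, the Cnn1 window chr9:22099003-22099252 on the plus strand and the Des window chr1:75360042-75360291 on the plus strand. Acta2, the actin of the smooth muscle filament, had 2 such sites, CCCTATATGG beginning 84 bases and CCTTGTTTGG beginning 34 bases before the start. Neither was an exact CArG box. The Cnn1, Des, Rgs5 and Notch3 windows held none, which says only that these letters are not in those 250 bases. The motif's form is its own reverse complement, so 1 search covers both strands. Of 32851 promoter windows of the same length, 1.47% held an exact CArG box and 8.59% held a site with at most 1 such mismatch.

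Totals were 33666251 to 34045321 counts in the wild type libraries, 61179297 to 89553766 in the Arid2-labelled and 38644867 to 41362640 in the Smarcb1-labelled libraries. The targeted genes were a weak check of the labels. Arid2 was at 68.9, 74.96 and 67.8 CPM (counts relative to the library size after TMM scaling) in wild type and 94.6, 77.7 and 59.9 in the Arid2-labelled libraries. Smarcb1 was at 65.9, 71.7 and 69.3 CPM in wild type and 47.5, 53.7 and 59.4 in the Smarcb1-labelled libraries, with an edgeR adjusted p of 0.0651. The names Arid2-labelled and Smarcb1-labelled are used for this reason, and every direction is that of the labels. Markers of neighbouring organs varied between libraries: the thymocyte gene Rag1 was at 502 CPM in Arid2-labelled replicate 1 and 52.6 in Smarcb1-labelled replicate 2 and at most 0.145 elsewhere, and the parathyroid hormone gene Pth ran from 0.0297 to 16750 CPM. Thyroid follicle genes took 228200 to 324300 CPM in all libraries.

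**Figure D1:**
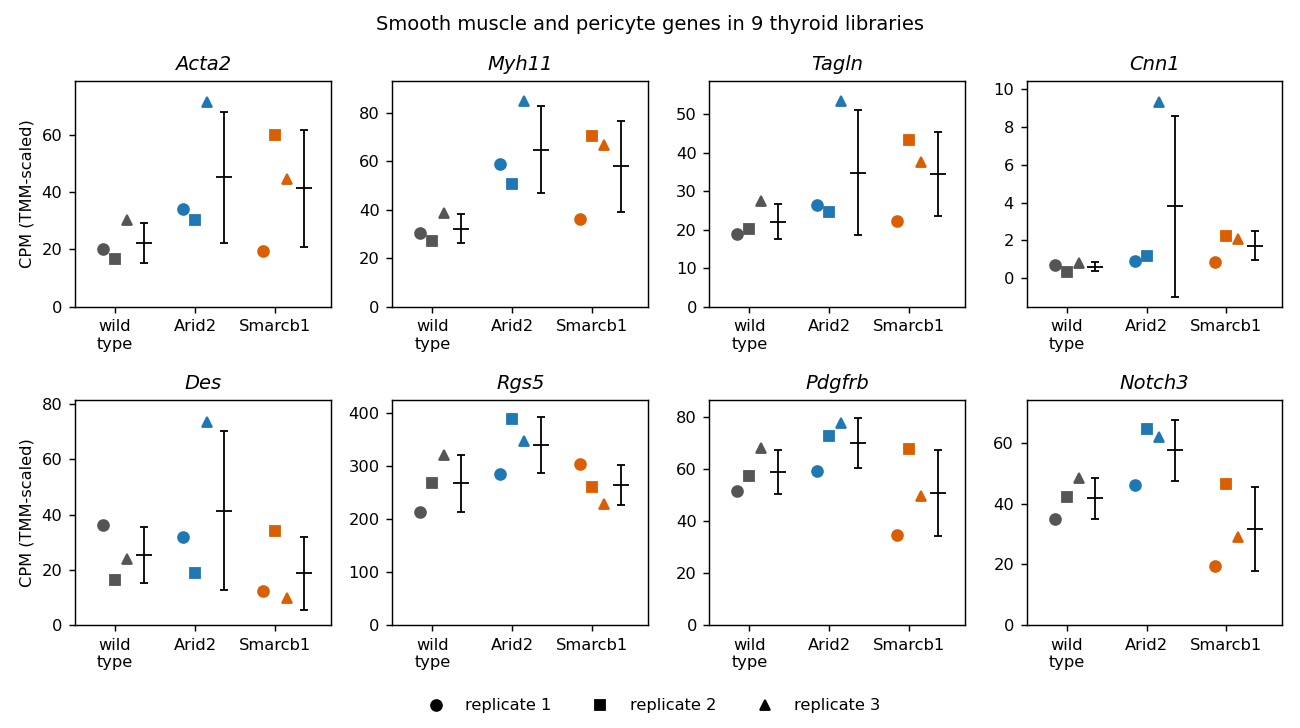
CPM of each of the 8 genes in each of the 9 libraries, with the group mean and SD as a black bar; each panel has its own linear axis. Arid2-labelled replicate 3 is the highest library for Acta2, Myh11, Tagln, Cnn1 and Des, while Rgs5 stays between 212.5 and 387.3 CPM.

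Per kilobase of the longest transcript, wild type thyroid held Rgs5 at 65.2 ± 13.2 CPM per kb (SD, n = 3), far above the rest. Tagln at 13.9 ± 2.88, Acta2 at 11.0 ± 3.46, Pdgfrb at 10.8 ± 1.55 and Des at 8.41 ± 3.33 followed, and neighbours in that order overlapped in their spread. Notch3 at 5.22 ± 0.848 and Myh11 at 4.91 ± 0.906 CPM per kb also overlapped. Cnn1 was lowest at 0.253 ± 0.0965 CPM per kb, on 12 to 26 counts a library, so its fold changes rest on few reads in wild type. Rgs5 was first and Cnn1 last in all 3 groups. The order depends on the length used: by coding length Des, at 18.1 CPM per kb, stood above Pdgfrb at 17.7. Tagln's level is uncertain. In an annotation of GRCm38, not the authors' build, 67.9% of its exon bases overlap exons of other genes on the other strand. Most of that is 1 gene, Gm48529, which overlaps 62.4% of them. Whether the annotation used for counting held these overlaps, and its strand setting, were not given in the sources used here. Acta2 shared 0.352% and Myh11 0.400% of their 50-base windows with other genes.

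Acta2, smooth muscle actin, was at 19.99, 16.7 and 30.2 CPM in wild type, 34.05, 30.2 and 71.6 in the Arid2-labelled and 19.4, 60.1 and 44.55 in the Smarcb1-labelled libraries. The Arid2-labelled libraries were at or above every wild type one, with Arid2-labelled replicate 2 level with wild type replicate 3, while Smarcb1-labelled replicate 1 sat among the wild type libraries. Myh11, the myosin heavy chain, was at 30.5, 27.2 and 38.7 CPM in wild type, 58.8, 50.8 and 85.0 in the Arid2-labelled and 36.3, 70.6 and 66.8 in the Smarcb1-labelled libraries. Every Arid2-labelled library was above every wild type library, and again Smarcb1-labelled replicate 1 alone of its group overlapped wild type. Tagln was at 18.9, 20.03 and 27.4 CPM in wild type, 26.4, 24.6 and 53.5 in the Arid2-labelled and 22.3, 43.4 and 37.7 in the Smarcb1-labelled libraries, so both labelled groups overlapped wild type.

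Cnn1, calponin, was at 0.698, 0.342 and 0.771 CPM in wild type, 0.892, 1.17 and 9.33 in the Arid2-labelled and 0.840, 2.24 and 2.08 in the Smarcb1-labelled libraries. Each labelled library was above each wild type one, and Arid2-labelled replicate 3, on 581 counts, was far above all others. Des was at 36.3, 16.3 and 23.9 CPM in wild type, 32.0, 18.8 and 73.7 in the Arid2-labelled and 12.4, 34.0 and 9.96 in the Smarcb1-labelled libraries. All 3 groups overlapped, and Arid2-labelled replicate 3 was again the highest.

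Desmin also belongs to skeletal muscle, and markers of skeletal muscle moved with it. The 15 skeletal muscle genes summed to 37.9 to 1460 CPM in wild type, 533.6 to 2319 in the Arid2-labelled and 149.8 to 1444 in the Smarcb1-labelled libraries. Of these 15 genes, 14 were tested. Myh7 was at 0 in Smarcb1-labelled replicate 1 and at most 0.226 CPM elsewhere. The fast myosin Myh4 was lowest at 3.07 CPM, in wild type replicate 2, and highest at 699.6 CPM, in Arid2-labelled replicate 3, which was also the highest for Des. Over the 9 libraries Des followed the mean log2 CPM of the list with r = 0.747 (exact permutation p = 0.0196, adjusted p = 0.0710) and rho = 0.833 (exact permutation p = 0.00827, adjusted p = 0.0300). Without the 2 libraries farthest from the median of Des, r was 0.634. With the skeletal muscle level as a covariate, the Des log2 fold change in Arid2-labelled thyroids was -0.14 where it was 0.70 without it. The part of skeletal muscle in the levels of the other 7 members was not tested beyond the same fit.

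**Figure D2:**
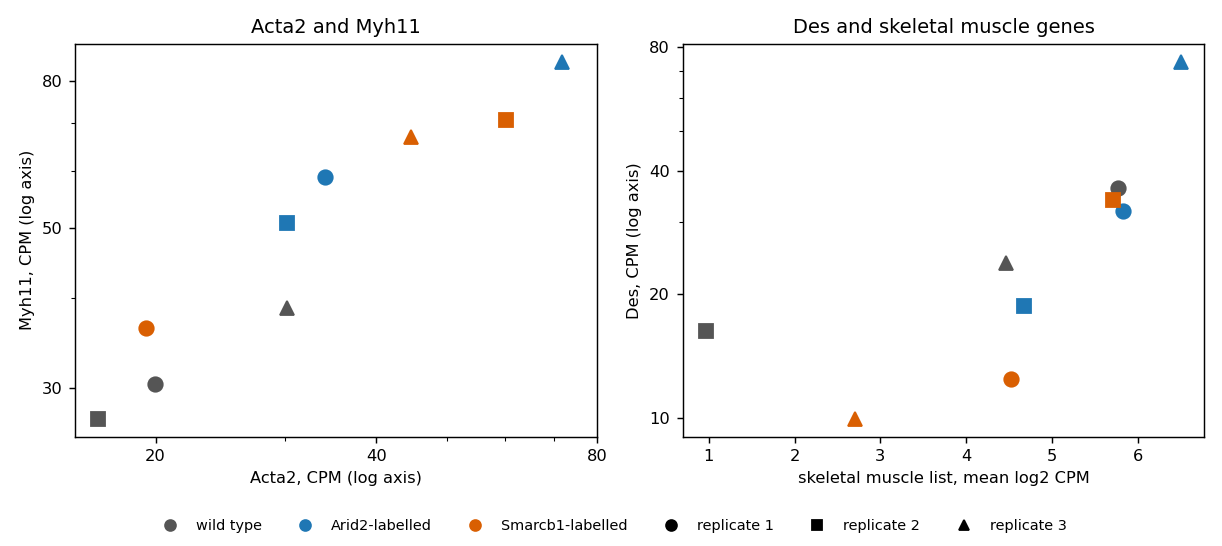
Left: Acta2 against Myh11 in CPM, both axes log, 1 point a library; the points lie along 1 rising line (r = 0.958 on log2 CPM). Right: Des in CPM against the mean log2 CPM of the skeletal muscle list, where Arid2-labelled replicate 3 is highest on both axes.

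Rgs5, the regulator of G protein signalling in mural cells, was at 212.5, 267.4 and 320.6 CPM in wild type, 283.6, 387.3 and 347.4 in the Arid2-labelled and 302.9, 259.7 and 227.7 in the Smarcb1-labelled libraries. All 3 groups overlapped, and the highest library was 1.82 times the lowest, the narrowest range of the 8 genes. Pdgfrb, the receptor for the endothelial ligand, was at 51.3, 57.0 and 67.8 CPM in wild type, 59.0, 72.6 and 77.6 in the Arid2-labelled and 34.6, 67.65 and 49.7 in the Smarcb1-labelled libraries. Notch3, the mural Notch receptor, was at 34.9, 42.2 and 48.5 CPM in wild type, 46.1, 64.7 and 62.0 in the Arid2-labelled and 19.4, 46.6 and 28.9 in the Smarcb1-labelled libraries. For Pdgfrb and Notch3 alike, Smarcb1-labelled replicate 1 was the lowest of all 9 libraries, and replicate 2 of that group lay within the wild type range.

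None of the 8 genes passed an adjusted p of 0.05 in Arid2-labelled against wild type thyroid by edgeR's quasi-likelihood test, where 0.556% of all genes tested passed. All 8 log2 fold changes were positive, as were 52.5% of those of all genes, and their median was 0.68 against 0.02 for all genes. At an unadjusted p under 0.05 there were 3, Acta2, Myh11 and Cnn1, all higher, where 7.86% of all genes were higher and 14.9% passed in either direction. Myh11 and Cnn1 had no overlap between groups, as 12.9% of all genes did in that direction, while for Acta2 the groups met at 30.2 CPM and were separated only by less than the digits given. Limma-voom also called 0 members, with 0.591% of all genes, and DESeq2 called 1, Myh11, where DESeq2 called 5.16% of all genes.

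Myh11 had the smallest p in this comparison, with a log2 fold change of 1.01 (SE 0.28, 95% interval 0.39 to 1.64, edgeR adjusted p = 0.136) and a DESeq2 adjusted p of 0.0123. Acta2 had 1.02 (SE 0.45, edgeR adjusted p = 0.331), and Cnn1 had 2.65 (SE 0.90, edgeR adjusted p = 0.212). The remaining contractile genes, Tagln at 0.66 and Des at 0.70, had intervals that included 0. So did the mural genes Rgs5 at 0.35, Pdgfrb at 0.25 and Notch3 at 0.46. Arid2-labelled replicate 3 carried much of the size: without it the log2 fold change was 0.77 for Cnn1, 0.52 for Acta2, 0.76 for Myh11, 0.20 for Tagln and -0.02 for Des. The mural values moved less, to 0.32 for Rgs5, 0.16 for Pdgfrb and 0.40 for Notch3.

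The levels of other vessel and epithelial markers are given beside these values. The 12 endothelial genes summed to 606.7 to 837.3 CPM in wild type and 1045 to 1267 CPM in the Arid2-labelled libraries, with 11 of 12 log2 fold changes positive and 1, Emcn, called by edgeR. Of the 12, 11 had no overlap on the higher side, where 12.9% of all genes had none. At an unadjusted edgeR p under 0.05, 10 were higher, against 7.86% of all genes. DESeq2 called 3 higher, Emcn, Kdr and Pecam1, where it called 5.16% of all genes in either direction. Pecam1 was at 84.9 to 107 CPM in wild type and 143 to 158 CPM in the Arid2-labelled libraries. Of 10 airway epithelium genes, 9 had positive log2 fold changes with a median of 2.7, 6 had no overlap on the higher side, and edgeR called 3 higher: Bpifb1 at 4.85 (adjusted p = 0.0210), Muc5b at 4.27 (adjusted p = 0.0290) and Scgb3a1 at 5.47 (adjusted p = 0.00261). Together the 10 genes ran from 82.5 to 157 CPM in wild type and from 55.0 to 247.4 CPM in the Arid2-labelled group. Bpifa1, whose log2 fold change was -0.68 (edgeR adjusted p = 0.845), made up most of that sum in each wild type library. It also did so in Arid2-labelled replicate 3. In Arid2-labelled replicate 1, Bpifa1 gave 31.5 of the 89.4 CPM, and in replicate 2 of that group 22.4 of the 55.0 CPM. The club cell gene Scgb1a1 was highest, at 32.7 CPM, in Arid2-labelled replicate 3. All 10 fibroblast genes had negative log2 fold changes, and edgeR called 1, Fbln1, lower, where it called 0.556% of all genes in either direction. At an unadjusted edgeR p under 0.05, 4 were lower, against 14.9% of all genes in either direction. DESeq2 called 4 lower, Dcn, Fbln1, Lum and Pdgfra, against the same 5.16% of all genes. The part of these cells in the members' values was not tested.

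In Smarcb1-labelled against wild type thyroid, edgeR called 0 of the 8 genes where it called 7.90% of all genes. The signs were mixed: Acta2, Myh11, Tagln and Cnn1 were positive, and Des, Rgs5, Pdgfrb and Notch3 were negative, where 54.6% of all genes were positive. The median was 0.85 over the 5 contractile genes and -0.21 over the 3 mural genes, against 0.05 for all genes. At an unadjusted p under 0.05 there was 1, Myh11, and 28.4% of all genes in either direction. Cnn1 alone had no overlap, on the higher side, as did 17.1% of all genes. Limma-voom called 0 (7.12% of all genes by that tool), and DESeq2 called 1, Myh11, against 16.2% of all genes by that tool.

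Myh11 had a log2 fold change of 0.85 in this comparison (SE 0.28, 95% interval 0.22 to 1.47, edgeR adjusted p = 0.0874) and a DESeq2 adjusted p of 0.0227. The call turned on Smarcb1-labelled replicate 1, the library that sat with wild type: without it the edgeR value was 1.09 with an adjusted p of 0.0442, in a fit that called 4.13% of all genes. Acta2 had 0.89 (edgeR adjusted p = 0.224), Tagln 0.64 and Cnn1 1.51 (edgeR adjusted p = 0.288). Notch3 had -0.40 (95% interval -1.05 to 0.24), Pdgfrb -0.21 (-0.72 to 0.30), Des -0.44 (-1.75 to 0.88) and Rgs5 -0.02 (-0.43 to 0.39). Without the 2 libraries that held thymocyte markers, Notch3 was -0.84 with an edgeR adjusted p of 0.0416, in a fit that called 12.6% of all genes. The parathyroid genes summed to 8.16 to 4320 CPM in wild type and 6092 to 16990 CPM in the Smarcb1-labelled libraries. With that level as a covariate Des became 0.15 and Rgs5 0.12. It was higher in every Smarcb1-labelled library than in any wild type one, so the covariate and the label cannot be fully told apart. Of the 12 endothelial genes, 8 had positive log2 fold changes and edgeR called 2 higher, Emcn at 0.58 (adjusted p = 0.0266) and Tek at 0.61 (adjusted p = 0.0463). It called 7.90% of all genes in either direction. Of 10 fibroblast genes it called 2 lower, Col1a1 at -1.06 (adjusted p = 0.0159) and Col1a2 at -0.57 (adjusted p = 0.0320), against 5.74% of all genes. At an unadjusted edgeR p under 0.05, 5 fibroblast genes were lower, where 28.4% of all genes passed in either direction. DESeq2 called 5 of them lower and limma-voom 3, against 16.2% and 7.12% of all genes in either direction. The part of these cells in the members' values was not tested.

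**Figure D3:**
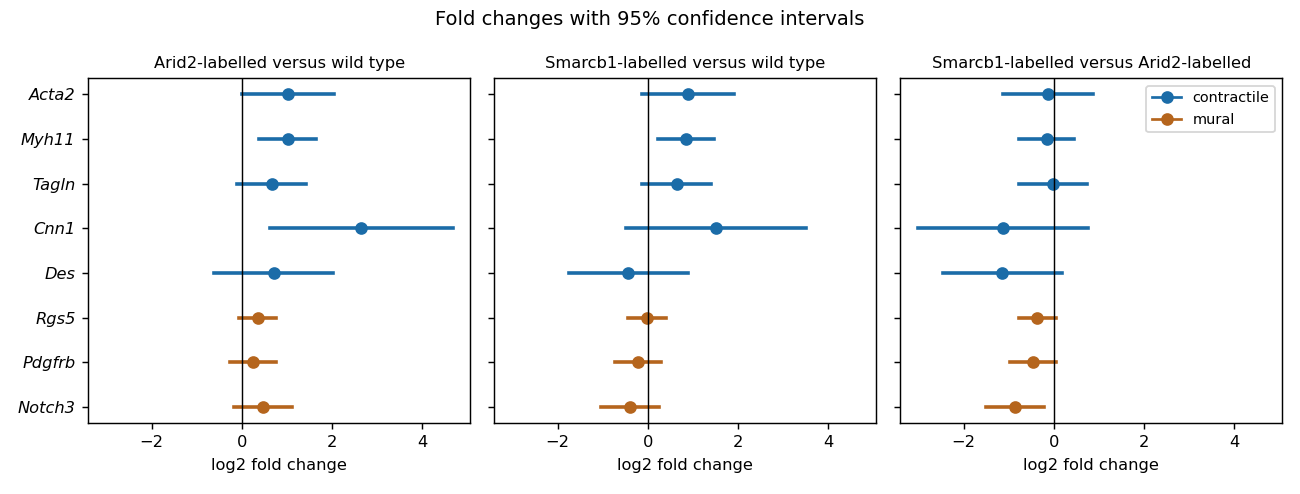
Log2 fold change (edgeR) of each gene with its 95% interval in the 3 comparisons, the vertical line at 0. In Arid2-labelled against wild type all 8 lie to the right of 0, and in Smarcb1-labelled against Arid2-labelled all 8 lie to the left.

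In Smarcb1-labelled against Arid2-labelled thyroid all 8 log2 fold changes were negative, as were 49.7% of those of all genes, with a median of -0.41 against 0.00299. The endothelial list lay on the same side, with 11 of 12 log2 fold changes negative, 7 of 12 without overlap on the lower side, a median of -0.40 and 0 called by edgeR, 3 at an unadjusted p under 0.05. Its part in the members' values was not tested. EdgeR called 0 of the 8 members against 16.3% of all genes. At an unadjusted p under 0.05 there was 1, Notch3, against 18.1% of all genes on the lower side, limma-voom called 0 (17.1% of all genes by that tool) and DESeq2 called Notch3 alone, against 25.4% of all genes. All 8 genes overlapped between these groups, where 18.3% of all genes had no overlap on the higher side and 20.5% on the lower. Notch3 had -0.86 (SE 0.29, 95% interval -1.51 to -0.22, edgeR adjusted p = 0.0681), Des -1.14 (edgeR adjusted p = 0.194), Pdgfrb -0.46 (edgeR adjusted p = 0.176) and Rgs5 -0.37 (edgeR adjusted p = 0.182). The contractile genes other than Des were near 0 or imprecise, with Tagln at -0.02, Acta2 at -0.13, Myh11 at -0.16 and Cnn1 at -1.14.

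With all libraries in the fit edgeR called none of the members, and it called some only in fits without Smarcb1-labelled replicate 2. Without it, edgeR called Notch3 at -1.25 (adjusted p = 0.0107), Pdgfrb at -0.73 (adjusted p = 0.0330) and Des at -1.89 (adjusted p = 0.0453), in a fit that called 25.5% of all genes. Without both thymocyte-bearing libraries the same 3 were called, Notch3 at -1.40, Pdgfrb at -0.84 and Des at -2.05, where 21.9% of all genes were. This comparison and the first share the Arid2-labelled libraries, the first and second share wild type, and the second and this one share the Smarcb1-labelled libraries. Notch3 was the most GC-rich of the 8 transcripts, at 59.6%, and with a trend over GC content removed its log2 fold change was -0.33 between the labelled groups and 0.08 for Smarcb1-labelled against wild type.

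The balance between contractile and mural genes differed between libraries as well. The ratio of Myh11 to Pdgfrb CPM was 0.594, 0.478 and 0.571 in wild type, 0.997, 0.700 and 1.10 in the Arid2-labelled and 1.05, 1.04 and 1.35 in the Smarcb1-labelled libraries. All 6 labelled libraries were above all 3 wild type libraries. The ratio was chosen after its values were seen and is a description without a test. Other ratios overlapped. Acta2 to Rgs5 was 0.0625 to 0.0942 in wild type, 0.0780 in Arid2-labelled replicate 2 and 0.0642 in Smarcb1-labelled replicate 1. Acta2 to Pdgfrb was 0.293 to 0.445 in wild type and 0.416 in Arid2-labelled replicate 2. The remaining labelled libraries were above wild type in these ratios too. The mean log2 CPM of the 5 contractile genes less that of the 3 mural genes ran from -3.27 to -2.53 in wild type, from -2.99 to -1.34 in the Arid2-labelled and from -2.40 to -1.80 in the Smarcb1-labelled libraries, so on that measure Arid2-labelled replicate 2 fell within the wild type range.

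**Figure D4:**
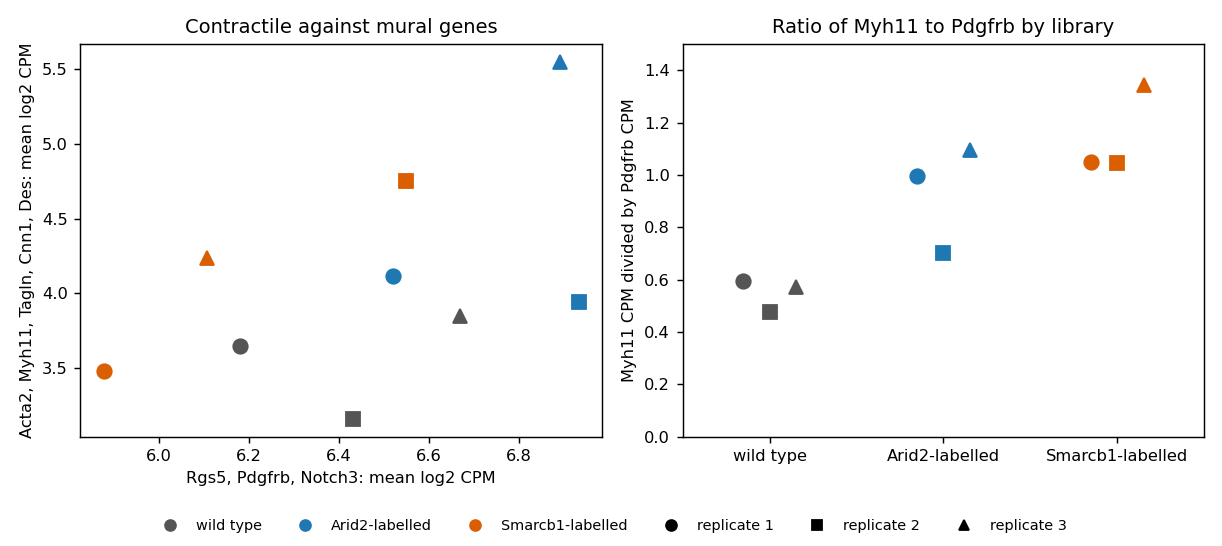
Left: mean log2 CPM of the 5 contractile genes against that of the 3 mural genes, 1 point a library. Right: the Myh11 to Pdgfrb ratio of CPM by library, with the 6 labelled libraries between 0.700 and 1.35 and wild type between 0.478 and 0.594.

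Across the 9 libraries the genes fell into a contractile block and a pair of receptors. Acta2 and Myh11 had r = 0.958 (exact permutation p = 4.13e-05, adjusted over 29 relations 0.000533) and rho = 0.983 (exact permutation p = 4.96e-05, adjusted 0.000719), and r was 0.940 without the 2 libraries farthest from the median, Arid2-labelled replicate 3 and Smarcb1-labelled replicate 2. Pdgfrb and Notch3 had r = 0.975 (exact permutation p = 1.38e-05, adjusted 0.000400) and rho = 0.983 (exact permutation p = 4.96e-05, adjusted 0.000719), and r was 0.930 without Arid2-labelled replicate 3 and Smarcb1-labelled replicate 1. All 6 pairs among Acta2, Myh11, Tagln and Cnn1 passed after adjustment, with r from 0.882 to 0.970, and 2 of them, Acta2 with Myh11 and Acta2 with Tagln, still passed without the 2 farthest libraries. Des stood outside this block, with r of 0.377 to 0.529 to the other 4 and none past the threshold. None of the 15 pairs of a contractile with a mural gene passed, with r from 0.181 to 0.623. Rgs5 was also apart from its mural partners, at r = 0.446 with Pdgfrb (exact permutation p = 0.230, adjusted 0.370) and 0.524 with Notch3 (exact permutation p = 0.146, adjusted 0.327). After each group's mean was subtracted, r was 0.986 for Acta2 with Myh11 and 0.985 for Pdgfrb with Notch3. On that measure the 15 pairs of a contractile with a mural gene had r from -0.197 to 0.836 (median 0.443). The highest of them, Acta2 with Pdgfrb, was above the lowest inside the contractile block, Myh11 with Cnn1 at 0.811. The block was then not fully separate. With 216 orders within groups the smallest adjusted p was 0.0671 and no pair passed. So few orders allow no permutation p under 0.00463, and a pair alone at that p could not pass over 29 relations. This test therefore cannot show that relations were lost. The 9 points share their group labels, and depth differed between groups.

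**Figure D5:**
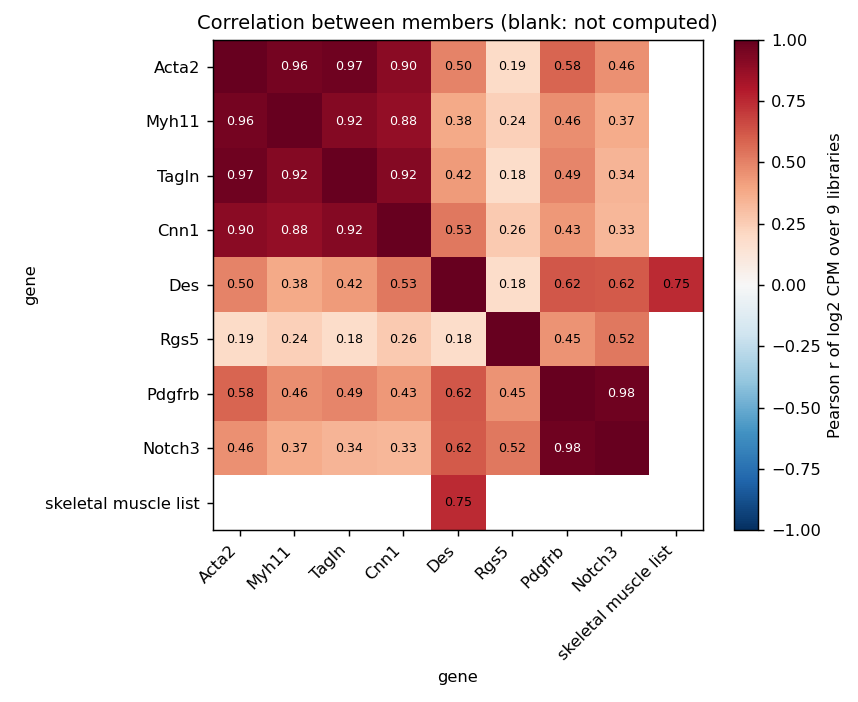
Pearson r of log2 CPM between the 8 genes over 9 libraries. Acta2, Myh11, Tagln and Cnn1 form a block of r from 0.882 to 0.970, and Pdgfrb with Notch3 reaches 0.975.

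The genes whose log2 CPM most resembled the mean of the contractile members over 9 libraries, among 12918 genes, were Mustn1 at r = 0.943, Cdh13 at 0.912, Zkscan6 at 0.912, Sema6a at 0.905, Anxa6 at 0.902 and Eepd1 at 0.898. Arid2-labelled replicate 3 was the highest library for Mustn1, Cdh13, Zkscan6, Anxa6 and Eepd1. Nearest to the mural mean were Baiap3 at r = 0.973, Tbkbp1 at 0.961, Tmem204 at 0.949, Cspg4 at 0.947, Fam131c at 0.946 and Igfbp7 at 0.944. Cspg4, the NG2 proteoglycan of pericytes, was on the wider pericyte list. None of the other neighbours named here was on that list or on the list of further contractile genes. These r values describe likeness over 9 points that share group labels and depth differences.

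Other genes of the same pathways were followed in 5 lists. In Arid2-labelled against wild type the shares of all genes, against which these counts are read, were 0.556% called by edgeR, 14.9% at an unadjusted p under 0.05, 5.16% by DESeq2 and 0.591% by limma-voom. Of 20 further contractile genes, edgeR called 0 in Arid2-labelled against wild type, with 2 genes higher before adjustment (p under 0.05). DESeq2 and limma-voom called 0 of them. Their median log2 fold change was 0.35 with 15 of 20 positive. The smallest p was that of Actg2, the smooth muscle gamma actin, was at 0.485, 0.370 and 0.326 CPM in wild type and 0.506, 0.516 and 3.69 CPM in the Arid2-labelled libraries, with 1 library far above the rest, and its log2 fold change was 1.99 (edgeR adjusted p = 0.285). Of 15 further pericyte genes, edgeR called 0 in that comparison with 1, Art3, at an unadjusted p under 0.05, and DESeq2 called Art3. Art3 had a log2 fold change of 0.80 (edgeR adjusted p = 0.124). For the 8 regulators, 5 PDGF genes and 13 Notch genes edgeR also called 0, with 1, 2 and 5 at an unadjusted p under 0.05. DESeq2 called 0 regulators and 0 Notch genes but 1 PDGF gene, Pdgfra, and limma-voom called 0 in all 5 lists. Pdgfra, the PDGF receptor of fibroblasts, had a log2 fold change of -0.56 (edgeR adjusted p = 0.0992). Among the Notch genes the target Hes1 had -0.62 (edgeR adjusted p = 0.184), the endothelial ligand Dll4 1.05 (edgeR adjusted p = 0.226) and Notch4 0.93 (edgeR adjusted p = 0.236).

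In Smarcb1-labelled against wild type, edgeR called 1 of 20 contractile genes, 1 of 8 regulators and 1 of 5 PDGF genes, all lower, as were 5.74% of all genes, and 0 pericyte and 0 Notch genes. The contractile list as a whole was mixed, with 11 of 20 log2 fold changes positive. At an unadjusted p under 0.05, 3 of its genes were higher and 1 lower. Unadjusted p under 0.05 held for 5 pericyte and 2 Notch genes, DESeq2 called 2 and 1, and limma-voom called 1 and 0, against 28.4%, 16.2% and 7.12% of all genes. The pericyte genes called were Anpep, higher by both tools, and Ndufa4l2, lower by DESeq2 alone. Ppp1r14a, an inhibitor of myosin phosphatase, fell from 1.46, 1.99 and 1.84 CPM to 0.458, 0.860 and 0.595 CPM, with a log2 fold change of -1.46 (SE 0.31, edgeR adjusted p = 0.0254). Mkl1 fell from 24.2, 27.9 and 25.8 CPM to 11.6, 19.8 and 14.7 CPM (log2 fold change -0.76, SE 0.19, edgeR adjusted p = 0.0477). No other regulator was called, and Srf was at 23.3, 26.2 and 24.9 CPM in wild type and 17.5, 27.1 and 24.4 in the Smarcb1-labelled libraries. Pdgfb, the endothelial ligand of Pdgfrb, fell from 43.5, 32.2 and 38.5 CPM to 18.7, 24.2 and 20.7 CPM (log2 fold change -0.84, SE 0.16, edgeR adjusted p = 0.0177). Leaving out libraries ended these calls in part. Among 9 fits that each left out 1 library, Pdgfb was lost without wild type replicate 1 (adjusted p = 0.0666), wild type replicate 3 (0.0510) and Smarcb1-labelled replicate 3 (0.0669), while Mkl1 was called only without Smarcb1-labelled replicate 2 (adjusted p of 0.0518 to 0.136 in the other fits). Ppp1r14a was called without Arid2-labelled replicates 1 and 3 and Smarcb1-labelled replicate 2, and had adjusted p of 0.0537 to 0.0903 in the 6 other fits. With the GC trend removed the values were -0.73, -0.33 and -0.26 for Ppp1r14a, Mkl1 and Pdgfb, and none was called. With the parathyroid level as a covariate the values were -1.31 (adjusted p = 0.122), -0.79 (adjusted p = 0.159) and -0.69 (adjusted p = 0.103), so these calls were lost with the values largely kept. This covariate and the Smarcb1 label cannot be fully told apart. Mkl1 was also not called with upper-quartile scaling (adjusted p = 0.0517), library totals (0.0814), no filter on low counts (0.0560) or the skeletal muscle covariate (0.0613). With only the 6 libraries compared, Ppp1r14a (0.0614) and Mkl1 (0.0816) were not called.

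Between the labelled groups edgeR called 2 of 20 contractile genes (1 higher, Itga8, 1 lower, Ppp1r14a), 1 of 8 regulators (Mkl1, lower), 3 of 15 pericyte genes (Anpep higher, Gja4 and Ndufa4l2 lower), 1 of 5 PDGF genes (Pdgfra, higher) and 1 of 13 Notch genes (Notch4, lower). Of all genes 6.95% were called higher and 9.32% lower. Ppp1r14a had a log2 fold change of -1.70 (SE 0.30, edgeR adjusted p = 0.0119) and lost its call in 1 of 9 fits, without Arid2-labelled replicate 3 (adjusted p = 0.0595). Anpep, aminopeptidase N, rose from 40.7, 43.2 and 18.6 CPM to 135.7, 128.8 and 210.4 CPM (log2 fold change 2.21, SE 0.53, edgeR adjusted p = 0.0275). Notch4, a Notch receptor of endothelial cells, fell from 33.8, 37.0 and 37.7 CPM to 6.82, 18.4 and 17.6 CPM (log2 fold change -1.34, SE 0.34, edgeR adjusted p = 0.0305). Pdgfra rose by 0.59 (SE 0.13, edgeR adjusted p = 0.0227). The gap junction gene Gja4 fell by 0.88 (edgeR adjusted p = 0.0457), Ndufa4l2 by 1.08 (edgeR adjusted p = 0.0369) and Mkl1 by 0.74 (edgeR adjusted p = 0.0346) on the log2 scale, while the integrin gene Itga8 rose by 0.86 (edgeR adjusted p = 0.0366). Leaving out 1 library lost Anpep without any 1 of the Arid2-labelled libraries and without Smarcb1-labelled replicates 1 and 3 (adjusted p of 0.0524 to 0.103). Notch4 was lost without wild type replicate 1, any Arid2-labelled library or Smarcb1-labelled replicate 3 (0.0522 to 0.101), and Pdgfra without Arid2-labelled replicates 1 and 3 and Smarcb1-labelled replicates 1 and 3 (0.0620 to 0.0930). Without Smarcb1-labelled replicate 2 all of Itga8, Gja4, Ndufa4l2 and Mkl1 were called, and in most other such fits they were not. The parathyroid genes summed to 10.6 to 1581 CPM in the Arid2-labelled libraries. With the parathyroid level as a covariate none of these calls held. Anpep then stood at 1.22 (adjusted p = 0.0897), against 2.21 without the covariate, while the values of the others stayed close: Ppp1r14a -1.52, Mkl1 -0.78, Itga8 0.83, Pdgfra 0.55, Gja4 -0.77, Ndufa4l2 -0.90 and Notch4 -1.05. The cause of these losses was not tested. With the GC trend removed Ppp1r14a at -0.95 (adjusted p = 0.0460) and Anpep at 2.41 (adjusted p = 0.0394) kept theirs. The others lost theirs, with smaller values: Itga8 0.57, Pdgfra 0.49, Notch4 -0.67, Ndufa4l2 -0.43, Gja4 -0.38 and Mkl1 -0.25 (adjusted p of 0.0607 to 0.289). With the skeletal muscle covariate the same genes were not called (0.0561 to 0.0975). With only the 6 libraries compared, Itga8, Mkl1, Ndufa4l2, Gja4 and Notch4 were not called (0.0567 to 0.0951).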

How the data were processed

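RNA of 9 mouse thyroid libraries was measured by TruSeq RNA sequencing, per the labels' protocols. Raw counts per gene were deposited by the authors for 33924 genes; STAR 2.4, HTSeq 0.6.1, DESeq2 and build mm9 are listed without role or order per the submitters' processing notes, and the strand setting is not given in the sources used here. Groups follow the genotype labels. Replicate numbers follow the order of the samples and only name them. The 8 members and the lists were chosen with earlier results of these data known.

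Counts of 17079 genes that passed edgeR's filterByExpr were fitted with edgeR 4.0.16 (TMM, quasi-likelihood, 3 group means, 6 residual degrees of freedom, R 4.3.3), with Benjamini-Hochberg adjustment over all genes tested and a threshold of 0.05. DESeq2 1.42.0 and limma-voom (limma 3.58.1) were alternatives. Correlations used log2 CPM with exact two-sided permutation over library orders, adjusted over 29 relations. Named were the 8 members, from each other list up to 3 genes with the smallest adjusted p and every gene called, 9 cell type markers, and 6 genes nearest each profile. Tested on simulated counts with 200 changed genes, the fit of Arid2-labelled against wild type called 20 of the 100 genes given a 2-fold change and 95 of the 100 given a 4-fold one. Every simulated gene had the same dispersion, the spread between libraries beyond counting noise, of 0.0776. The members ran from 0.0303 for Rgs5 to 0.146 for Acta2, 0.239 for Des and 0.486 for Cnn1, so these counts need not hold for each member. GC, transcript and coding lengths came from an annotation of GRCm38, not the authors' build, and 97.3% of tested genes had a GC value.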

Additional observations from a re-analysis of the deposited data

How the results depend on the processing

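The 8 fold changes in each comparison were recomputed under 22 alternatives, 176 values a comparison: 173 kept their sign and side of the threshold in Arid2-labelled against wild type, 168 in Smarcb1-labelled against wild type and 152 in Smarcb1-labelled against Arid2-labelled. With DESeq2 the members called were 1, 1 and 1, and all genes called 882, 2768 and 4337, against 95, 1349 and 2779 by edgeR. Without the 2 thymocyte-bearing libraries 1 and 3 members were called in the comparisons of Smarcb1-labelled with wild type and with Arid2-labelled thyroid, and all genes called were 56 for Arid2-labelled and 2166 for Smarcb1-labelled against wild type. With only the 6 libraries compared all genes called were 201, 486 and 1348, and with the GC trend removed 228, 398 and 1062. With the skeletal muscle level as a covariate they were 34 for Arid2-labelled against wild type and 1076 between the labelled groups, and with the parathyroid level 197 and 145 for Smarcb1-labelled against wild type and Arid2-labelled. Leaving out 1 library at a time gave 0 to 1 and 0 to 3 members in those last comparisons, and 5 to 167, 344 to 2538 and 395 to 4411 genes overall.

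Some directions changed. In Arid2-labelled against wild type Des was -0.14 with the skeletal muscle covariate and ranged from -0.016 to 1.05 over the fits that left out 1 library. In Smarcb1-labelled against wild type Des was 0.15 and Rgs5 0.12 with the parathyroid covariate, Notch3 was 0.0794 with the GC trend removed, and Rgs5 ranged from -0.16 to 0.13, with 0.0749 without Smarcb1-labelled replicate 3. Between the labelled groups Tagln was 0.00578 with upper-quartile scaling, 0.0286 with limma-voom, 0.12 with the skeletal muscle covariate, 0.61 with the parathyroid covariate and 0.13 with the GC trend removed. Acta2 was 0.13 and 0.67 with the skeletal muscle and parathyroid covariates, Myh11 was 0.26 with the parathyroid covariate and 0.0133 with the GC trend removed, and Cnn1 was 1.17 with the parathyroid covariate. Over the fits that left out 1 library, Acta2 ranged from -0.50 to 0.36 (0.21 without Smarcb1-labelled replicate 1), Myh11 from -0.33 to 0.0816 (0.071 without Arid2-labelled replicate 3), Tagln from -0.22 to 0.43 (0.22 without Smarcb1-labelled replicate 1) and Cnn1 from -1.61 to 0.73. The cause was not tested. The parathyroid level was higher in every Smarcb1-labelled library than in any other, so that covariate and the label cannot be fully told apart. Of the correlated pairs, 7 passed over all libraries, 3 without the 2 farthest and 0 after group means were subtracted. The last count cannot show that relations were lost, because 216 orders allow no permutation p under 0.00463. On that measure r was still 0.986 for Acta2 with Myh11 and 0.985 for Pdgfrb with Notch3. No paired analysis was possible because the labels give no replicate numbers that the groups share.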
